A study of Homo sapiens with 8 samples.

Results

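The germ cell and piRNA pathway genes are 37 genes that act in the formation of germ cells, in small-RNA defence of the germ line, in meiosis and in the making of eggs and sperm. They were chosen by name, and a ChIP-seq peak counted for a gene where the deposited peak list named that gene beside the peak at a distance of at most 50 kb from the gene's start. Of the 37 genes, 36 were among the 19655 genes that the lists name beside a peak at any distance, and 34 had a peak within 50 kb (91.9%, against 97.2% of those 19655). The lists name 2 genes for a peak, so a peak can lie within 50 kb of a start and not be listed for that gene. Their peaks numbered 197 of 201619 in all.

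Binding of the transcription factors SOX2, OCT4 and NANOG was mapped by chromatin immunoprecipitation with sequencing in cultured human cells of the lines NT2/D1 and H9. NT2/D1 is an embryonal carcinoma line, and the labels give its source as a germ cell tumour. H9 is an embryonic stem cell line. Each line had 1 library for each factor and 1 IgG control sample, with no treatment named. IgG libraries served as controls of the authors' calls, and the IgG samples were not otherwise used here. Without replicates, a difference between libraries has no measured error, and no test was made. The labels of NT2/D1 contradict each other: the library titled OCT4 has NANOG in its source name and the one titled NANOG has OCT4, and the titles are followed here.

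Germ cells arise from pluripotent cells of the early embryo as primordial germ cells, which keep OCT4 and NANOG while most other lineages lose them. They then switch on RNA-binding proteins such as DAZL and DDX4, and load PIWI proteins with piRNAs, small RNAs that silence transposons, before entering meiosis. SOX2 belongs to the pluripotent state and is low in human primordial germ cells, and embryonal carcinoma is a pluripotent tumour of the germ line. Peak lists hold no RNA levels, so whether any of these genes was expressed in either line was not measured.

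Differences between the libraries bear on every value below. The NT2/D1 libraries were shallower, with 10218752 to 23160564 unique tags against 54046559 to 77649240 in H9, and their median peak held 7 to 11 tags against 32 to 46 in H9. Peaks were searched with a band width of 200 in NT2/D1 and 2000 in H9, with a model fold of 5 for NT2/D1 OCT4 and 3 for the others. The control behind both NT2/D1 SOX2 and NT2/D1 NANOG had 2937004 unique tags, that behind NT2/D1 OCT4 6479071 and that behind all 3 H9 lists 58012070. Tag counts and fold enrichments are the authors' own values and are used only within a list. A peak is therefore placed by its score percentile, the share of peaks in the same list with a lower score, and intervals of tag counts are exact 95% Poisson intervals that cover counting error only.

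The start itself lay inside a peak at 3 of the 37 genes, and their promoters are shown because they are the places where a factor's peak and a germ cell gene's start coincide. The share of all genes with a start inside a peak is not given here, so the count is not read as high or low. At KITLG, the ligand that guides and sustains migrating germ cells, an OCT4 peak of NT2/D1 spanned positions -303 to 141 relative to the start, in bp. At DMC1, the meiotic recombinase, an OCT4 peak of NT2/D1 spanned -3 to 186. At LHX8, a homeodomain factor of oocytes, a NANOG peak of H9 spanned -571 to 310. The sequences are the 250 bases before the start in RefSeq's GRCh38.p14 annotation, printed on the gene's own strand, and this start may differ from the one the submitters used on hg19. Capitals mark the GC box core GGGCGG or its reverse complement and, on the given strand, the TATA box core TATAAA.
KITLG (chr12:88580472-88580721, minus strand): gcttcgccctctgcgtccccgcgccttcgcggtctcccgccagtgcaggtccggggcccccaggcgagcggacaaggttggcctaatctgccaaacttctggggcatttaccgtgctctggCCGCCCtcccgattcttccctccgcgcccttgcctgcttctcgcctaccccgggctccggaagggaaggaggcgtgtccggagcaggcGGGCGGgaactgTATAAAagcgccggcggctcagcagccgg
DMC1 (chr22:38570184-38570433, minus strand): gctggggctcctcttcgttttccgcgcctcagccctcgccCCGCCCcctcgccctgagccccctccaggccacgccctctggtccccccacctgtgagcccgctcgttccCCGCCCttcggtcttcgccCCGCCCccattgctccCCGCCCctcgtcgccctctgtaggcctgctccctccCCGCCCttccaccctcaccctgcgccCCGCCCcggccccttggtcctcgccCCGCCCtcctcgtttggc
LHX8 (chr1:75128184-75128433, plus strand): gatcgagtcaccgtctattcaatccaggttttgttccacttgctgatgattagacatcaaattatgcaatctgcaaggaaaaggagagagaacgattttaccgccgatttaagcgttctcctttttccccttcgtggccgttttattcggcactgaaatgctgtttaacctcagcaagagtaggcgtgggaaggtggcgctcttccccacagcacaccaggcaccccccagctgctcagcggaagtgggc

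The KITLG and DMC1 promoters were rich in G and C, at 69.2% and 75.6%, and held 2 and 7 GC boxes. KITLG also had a TATA box core at position -29. The LHX8 promoter had 50.4% G and C and held neither. None of the 3 printed windows held the SOX core CATTGT or the octamer core ATGCAAA on either strand. The windows end at the start, so they hold almost none of the DMC1 peak (-3 to 186) and only part of the KITLG and LHX8 peaks. Whether the peaks themselves hold these cores was not examined. Among the 33 members with a RefSeq promoter, the SOX core occurred in 2 (MAEL and REC8), or 6.06%, against 9.29% of 35116 promoters of all kinds. The octamer core occurred in 1, PRDM1, or 3.03% against 3.94%. The 2 joined, CATTGTNATGC, occurred in none of the 33, against 0.0883% of all promoters. The GC box core occurred in 25 members (75.8%, against 42.6%), and the promoters of the 33 had a median of 66% G and C, beside 58% over all promoters. The TATA box core occurred in 4 (12.1%, against 6.8%), which were KITLG, NANOS2, STK31 and SYCP3. The last pair of searches was added after the sequences had been seen, and a match describes letters in this window and not a binding site.

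In no list did the 37 germ cell genes have a larger share with peaks than all listed genes. In NT2/D1, SOX2 peaks lay within 50 kb of 18 of the 37 members (48.6%), against 55.1% of all listed genes. OCT4 peaks lay by 25 (67.6%, against 75.8%) and NANOG peaks by 18 (48.6%, against 55.3%). In H9, SOX2 peaks lay by 11 (29.7%, against 33.6%), OCT4 peaks by 15 (40.5%, against 55.4%) and NANOG peaks by 20 (54.1%, against 54.2%). Every share was thus below the share over all genes or next to it, in the tumour line as in the embryonic line. The 37 include TDRD6, which no list names beside a peak, whereas every gene of the background is so named. This lowers the members' shares slightly, so the H9 NANOG shares of 54.1% and 54.2% are not ranked.

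**Figure D1:**
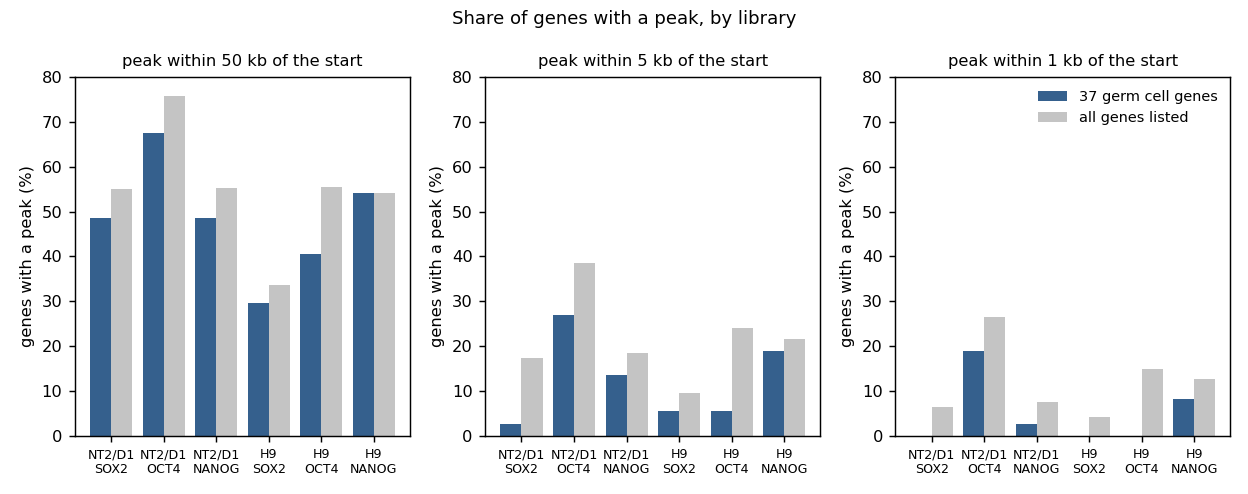
Share of genes with a peak (y axis, %) within 50, 5 and 1 kb of the start in each of the 6 libraries (x axis), for the 37 germ cell genes (blue) and all 19655 listed genes (grey). The blue bar is below the grey one in every library and at every distance, by as little as 54.1% against 54.2% for H9 NANOG at 50 kb. The 37 include TDRD6, which no list names beside a peak, so that smallest gap is not read as a difference.

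Closer to the start the shares were again below those of all genes. Within 5 kb, NT2/D1 had SOX2 peaks at 1 member (FIGLA, 2.7% against 17.3% of all genes), OCT4 peaks at 10 (27.0% against 38.5%) and NANOG peaks at 5 (13.5% against 18.4%). H9 had SOX2 peaks at 2 (5.41% against 9.59%), OCT4 peaks at 2 (5.41% against 24.1%) and NANOG peaks at 7 (18.9% against 21.5%). Within 1 kb, NT2/D1 OCT4 peaks lay at 7 members (18.9%, against 26.5%), which were NANOS2, KIT, KITLG, PIWIL4, SYCP2, DMC1 and TEX14. One member, ZP3, had an NT2/D1 NANOG peak there (2.7%, against 7.52%), and TDRD1, REC8 and LHX8 had H9 NANOG peaks (8.11%, against 12.7%). No member was listed beside a peak within 1 kb for NT2/D1 SOX2, H9 SOX2 or H9 OCT4, where 6.51%, 4.29% and 14.9% of all genes were. An H9 OCT4 peak that was not listed for TEX14 lay 500 bp from the TEX14 start. If the source names of the NT2/D1 libraries are followed in place of the titles, the 7 genes belong to NANOG and ZP3 to OCT4.

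Across their peaks, the median distance from peak edge to start in NT2/D1 was 27.7 kb for SOX2 (all genes 19.2 kb), 14.5 kb for OCT4 (15.3 kb) and 22.5 kb for NANOG (18.6 kb). In H9 it was 13.0 kb for SOX2 (18.3 kb), 12.0 kb for OCT4 (14 kb) and 7.54 kb for NANOG (16.5 kb). The H9 NANOG value is over 35 peaks, of which LHX8 alone has 7. Of the 197 peaks, 103 lay upstream of the gene's start, 91 downstream and 3 over it. For 153 the germ cell gene was the nearer of the pair of genes listed, and the other 44 lay nearer to another gene. The same divisions over all genes are not given here, so these counts are not read as particular to the members.

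**Figure D2:**
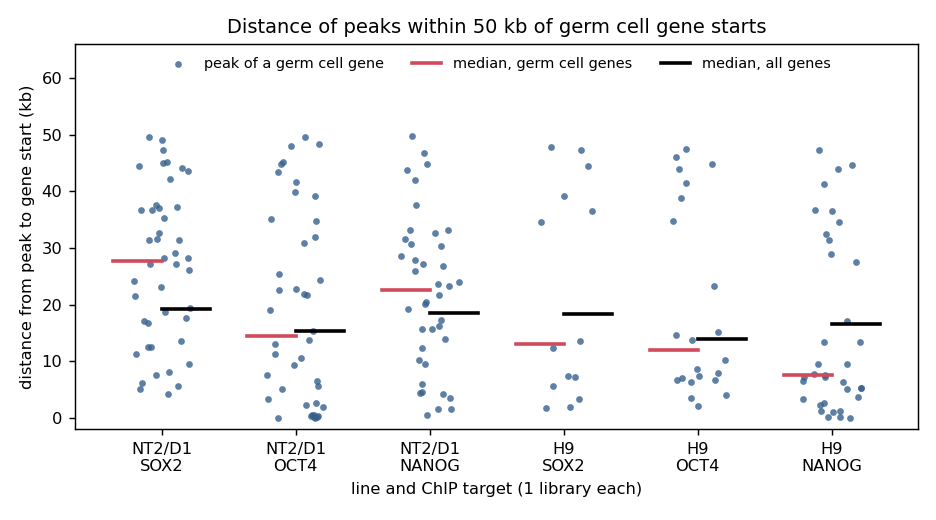
Distance from each germ cell gene peak within 50 kb to the gene's start (y axis, kb) by library (x axis). Points are peaks, red lines their medians and black lines the medians over all genes; the H9 NANOG median of 7.54 kb lies furthest below its line at 16.5 kb, and the NT2/D1 SOX2 median of 27.7 kb furthest above its line at 19.2 kb.

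The strength of these peaks was ordinary for their lists. Their median score percentile in NT2/D1 was 39.5 for SOX2, 57.1 for OCT4 and 52 for NANOG, beside 51.0, 49.2 and 50.8 over all genes. In H9 it was 46.4, 40.8 and 46.4 in the same order of factors, beside 47.7, 47.1 and 45.6. Peaks at percentile 90 or above made up 11.4%, 7.14% and 10% of the members' peaks in NT2/D1, beside 10.1%, 8.56% and 9.57%, and 7.14%, 9.09% and 5.71% in H9, beside 9.25%, 7.54% and 8.14%. Every member peak at or above percentile 90 belonged to LHX8, PIWIL1, TDRD5, STK31, STRA8, SYCP2, PIWIL4 or ZP3. The share of all genes with such a peak is not given here, so the number of these members is not read as high or low.

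Peaks of all 3 factors within 50 kb were listed for 8 members in NT2/D1 (NANOS3, PIWIL1, TDRD5, TDRD7, STK31, STRA8, LHX8 and ZP3), or 21.6% against 34.3% of all genes. In H9 there were 7 (PRDM1, NANOS1, DDX4, TDRD7, MAEL, STK31 and LHX8), or 18.9% against 23.8%. A single merged region with peaks of all 3 factors was rarer. It was found for LHX8 in NT2/D1 (2.7% of members, against 5.4%), and for PRDM1, TDRD7, STK31 and LHX8 in H9 (10.8%, against 16.9%). TDRD7, STK31 and LHX8 had peaks in all 6 lists (8.11% of members, against 11.5% of all genes).

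Peaks of NT2/D1 were listed for 32 members (86.5%, against 89.3% of all genes) and of H9 for 26 (70.3%, against 74.1%). Both lines had them for 24 members (64.9%, against 66.1% of all genes), NT2/D1 alone for 8 (21.6%, against 23.2%) and H9 alone for NANOS1 and DND1 (5.41%, against 7.98%). The split by line rests on which genes a peak is listed for. With every peak within 50 kb of a start counted, both lines had peaks at 27 members (73.0%, against 78.6% of all genes). NT2/D1 alone then had them at 7 (18.9%, against 14.1%) and H9 alone at 0 (against 5.54%). The NT2/D1-only share, below that of all genes by listing, was thus above it by this count. NANOS1 and DND1 then had NT2/D1 SOX2 and OCT4 peaks, and TEX14 had H9 peaks of all 3 factors. A peak of a factor in NT2/D1 seldom overlapped one of that factor in H9. For SOX2 this held at TDRD7 and LHX8 (5.41%, against 7.42%), for OCT4 at PRDM1, PIWIL1, TDRD7 and LHX8 (10.8%, against 20%) and for NANOG at FIGLA and LHX8 (5.41%, against 8.69%). With the NT2/D1 source names followed, the OCT4 overlap holds at 1 member, LHX8. The 197 peaks merged into 159 regions, of which 136 (85.5%) held a peak of 1 list, beside 81.3% of 98285 such regions over all genes. Peaks of both lines were found in 9 regions (5.66%, against 8.84% over all genes), of NT2/D1 alone in 108 (67.9%, against 64.5%) and of H9 alone in 42 (26.4%, against 26.7%).

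**Figure D3:**
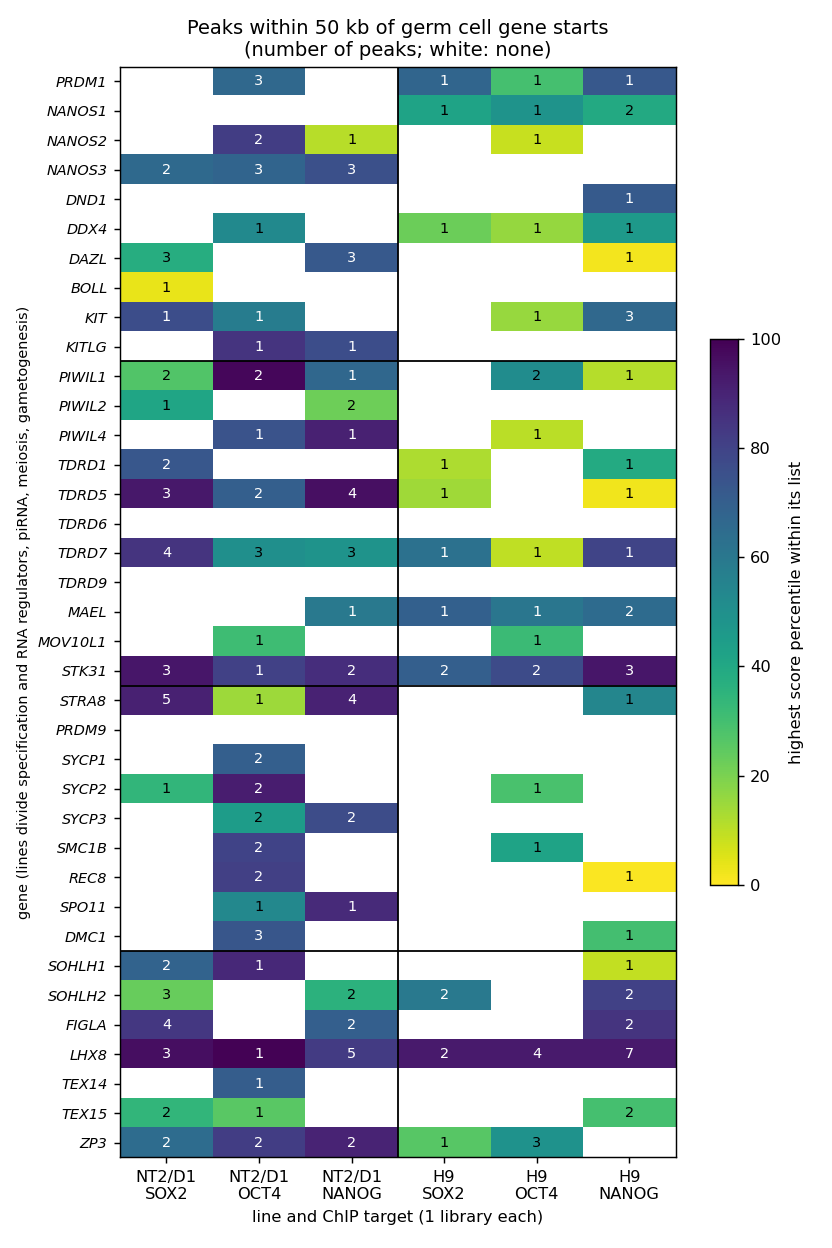
Number of peaks within 50 kb of each germ cell gene's start (rows, grouped by role) in each library (columns), with the colour giving the highest score percentile among them and white cells having none. TDRD7, STK31 and LHX8 fill all 6 columns, and TDRD6, TDRD9 and PRDM9 have no peak. Of the 9 meiosis genes, 5 have a peak in H9 (all genes 74.1%).

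Among the 10 genes of germ cell specification and RNA regulation, all had a peak, 8 in NT2/D1 (26 peaks) and 7 in H9 (17 peaks). Over all genes 97.2% had a peak in either line, 89.3% in NT2/D1 and 74.1% in H9, and the counts of genes in each group below are to be read against these shares. The number of peaks per gene over all genes is not given here, so the peak counts of the groups are not read as high or low. PRDM1, the repressor that specifies primordial germ cells, had a region 34.5 to 34.7 kb upstream (hg19, chr6:106498994-106499677) that 4 lists shared. In NT2/D1 it held an OCT4 peak of 5 tags (interval 1.62 to 11.7, percentile 66.2), and neither a SOX2 nor a NANOG peak of NT2/D1 was listed within 50 kb. In H9 it held 44 SOX2 tags (percentile 67.2), 31 OCT4 tags (percentile 29.3) and 44 NANOG tags (percentile 72.6). The site was thus listed for all 3 factors in the stem cell line and for 1 in the tumour line.

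The NANOS genes encode RNA-binding repressors of germ cells. NANOS3, which maintains primordial germ cells in mice, had peaks in NT2/D1 and none in H9. Its strongest held 13 tags for SOX2 (percentile 65.9, 43.5 kb upstream), 8 for OCT4 (percentile 67.6, 15.3 kb upstream) and 22 for NANOG (percentile 75.5, 10.2 kb upstream), at separate positions. NANOS1 was listed beside no NT2/D1 peak within 50 kb, the nearest listed OCT4 peak being just outside at 51232 bp. A SOX2 and an OCT4 peak of NT2/D1 that were not listed for NANOS1 lay 20.8 and 16.0 kb from its start. In H9 its strongest peaks held 36 SOX2 tags (percentile 41.9, 1.73 kb downstream), 31 OCT4 tags (percentile 48.7, 8.72 kb upstream) and 41 NANOG tags (percentile 39.3, 6.33 kb upstream). NANOS2, which keeps male germ cells out of meiosis in mice, had an NT2/D1 OCT4 peak of 14 tags (interval 7.65 to 23.5, percentile 81.8) 336 to 964 bp after its start. Its NT2/D1 NANOG peak (8 tags, percentile 10.8, 23.3 kb upstream) and its H9 OCT4 peak (22 tags, percentile 8.33, 38.8 kb upstream) were among the weakest of their lists.

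The other RNA-binding proteins of the group include factors of later germ cells. DDX4, the VASA helicase, had in NT2/D1 an OCT4 peak of 5 tags (percentile 52.5, 43.5 kb upstream). In H9 it had a SOX2 peak of 24 tags (percentile 22.6, 47.9 kb upstream), an OCT4 peak of 32 tags (percentile 15.9, 46.0 kb upstream) and a NANOG peak of 45 tags (percentile 46.4, 32.4 kb downstream). The upstream peaks of DDX4 lay nearer to SLC38A9. DAZL, an RNA-binding protein that licenses germ cells for meiosis in mice, had 3 SOX2 peaks in NT2/D1, the strongest of 14 tags (percentile 37.7, 28.2 kb downstream), and 3 NANOG peaks, the strongest of 9 tags (percentile 72.1, 30.7 kb upstream). In H9 it had a NANOG peak of 42 tags (percentile 1.85, 3.68 kb downstream). BOLL, of the same family, had 1 NT2/D1 SOX2 peak of 9 tags (percentile 3.18, 31.6 kb upstream, nearer to PLCL1). DND1, which protects primordial germ cells in mice, was listed beside 1 peak, an H9 NANOG peak of 38 tags (percentile 71.7, 1.29 kb downstream).

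KIT and its ligand both had an NT2/D1 OCT4 peak within 1 kb of the start. KIT, the receptor tyrosine kinase of migrating germ cells, had 9 OCT4 tags (interval 4.12 to 17.1, percentile 57.9) at 543 to 900 bp after the start and 13 SOX2 tags (percentile 76.4) 13.5 kb upstream in NT2/D1. In H9 its OCT4 peak held 16 tags (percentile 15.6, 2.03 kb downstream) and the strongest of 3 NANOG peaks 26 tags (percentile 66.1, 5.21 kb downstream). KITLG, whose promoter is printed above, had 12 OCT4 tags over its start in NT2/D1 (interval 6.2 to 21.0, fold 9.16, percentile 84.9) and 8 NANOG tags 28.7 kb downstream (percentile 76.5). KITLG had no H9 peak within 50 kb.

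Of the 11 piRNA pathway genes, 9 had a peak (all genes 97.2%), 9 in NT2/D1 (39 peaks, all genes 89.3%) and 8 in H9 (23 peaks, all genes 74.1%). PIWIL1, the PIWI protein of later spermatogenesis, had the second strongest peak by percentile of any member. That NT2/D1 OCT4 peak, 6.5 kb upstream (hg19, chr12:130815676-130816112), held 32 tags (interval 21.9 to 45.2) with a fold of 18.86 at percentile 98.4. An H9 OCT4 peak overlapped it with 25 tags, a fold of 4.06 and percentile 51.3. In NT2/D1 a SOX2 peak of 18 tags (percentile 27.2) and a NANOG peak of 15 tags (percentile 66.7) overlapped each other 37.5 to 37.6 kb upstream. In H9 the one NANOG peak held 21 tags (percentile 11, 41.3 kb downstream), and SOX2 had none.

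PIWIL4, a PIWI protein of fetal male germ cells in mice, had in NT2/D1 an OCT4 peak of 6 tags (interval 2.2 to 13.1, percentile 74.4) 138 to 369 bp after the start and a NANOG peak of 16 tags (percentile 90.9, 23.6 kb downstream). Its H9 OCT4 peak (15 tags, percentile 10.3, 23.2 kb upstream) lay 38 bp from the start of FUT4. PIWIL2 had its strongest peak in NT2/D1 SOX2, with 10 tags (percentile 41.3, 24.1 kb downstream), and no H9 peak. MOV10L1, a helicase that binds piRNA precursors, had its strongest in H9 OCT4, with 33 tags (percentile 31.7, 10.3 kb downstream), beside an NT2/D1 OCT4 peak of 6 tags (percentile 31.2, 13.8 kb downstream). MAEL, a piRNA pathway protein needed for transposon silencing, had an NT2/D1 NANOG peak of 11 tags (percentile 59.7, 4.42 kb upstream). In H9, MAEL had 42 SOX2 tags (percentile 69.4) and 42 NANOG tags (percentile 65.2) in overlapping peaks 36.5 kb upstream, nearer to ILDR2, and 30 OCT4 tags (percentile 60.7) 6.77 kb downstream.

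The Tudor-domain proteins bind PIWI proteins and build the granules where piRNAs are made. TDRD7 had peaks in all 6 lists, and 5 of them met 7.28 to 7.55 kb downstream of its start (hg19, chr9:100181577-100182294). There NT2/D1 had 15 SOX2 tags (interval 8.4 to 24.7, percentile 58.8) and 7 OCT4 tags (interval 2.81 to 14.4, percentile 50). H9 had 42 SOX2 tags (percentile 62.7), 20 OCT4 tags (percentile 9.58) and 51 NANOG tags (percentile 79.3). The strongest NT2/D1 SOX2 peak of TDRD7 was elsewhere, 37 kb upstream, with 15 tags (percentile 85.1), as was its strongest NT2/D1 NANOG peak, 1.59 kb downstream, with 8 tags (percentile 48.6). At the shared site no NANOG peak was thus called in the tumour line, or no OCT4 peak if the source names are followed. The OCT4 peak there in the stem cell line was weak for its list, at percentile 9.58.

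TDRD5 had 3 SOX2, 2 OCT4 and 4 NANOG peaks in NT2/D1. The strongest NANOG peak, 16.2 kb upstream, held 16 tags (interval 9.15 to 26.0) with a fold of 12.95 at percentile 96.0. Its strongest SOX2 peak in NT2/D1 held 17 tags (percentile 93.4, 27.2 kb upstream) and its strongest OCT4 peak 7 tags (percentile 69.8, 9.36 kb downstream). In H9 a SOX2 peak of 32 tags (percentile 14.1, 5.61 kb upstream) and a NANOG peak of 28 tags (percentile 1.96, 7.54 kb upstream) were both weak for their lists. TDRD1 had in NT2/D1 a strongest SOX2 peak of 11 tags (percentile 73.0, 28.3 kb downstream). In H9 it had a SOX2 peak of 53 tags (percentile 12.3, 12.4 kb upstream) and a NANOG peak of 26 tags (interval 17.0 to 38.1, percentile 38.9) 119 to 683 bp after its start. TDRD6 was named beside no peak at any distance. TDRD9 had none within 50 kb, its nearest being an NT2/D1 NANOG peak at 83.6 kb.

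STK31, a Tudor-domain kinase of the testis, had strong peaks in both lines at different sites. In NT2/D1 its strongest held 26 SOX2 tags (percentile 94.0, 31.5 kb downstream), 7 OCT4 tags (percentile 80.6, 2.7 kb downstream) and 15 NANOG tags (percentile 87.1, 49.7 kb downstream). In H9 the 3 factors met 13.3 to 13.7 kb downstream (hg19, chr7:23763326-23764338), with 60 SOX2 tags (percentile 69.9), 52 OCT4 tags (percentile 77.1) and 118 NANOG tags (interval 97.7 to 141, fold 18.39, percentile 94.0). They met again in H9 at 47.3 to 47.4 kb downstream, at percentiles 33.2, 68.4 and 58.6. Neither H9 site overlapped an NT2/D1 peak, although an NT2/D1 NANOG peak of 19 tags (percentile 84.5) lay 15.7 kb downstream.

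**Figure D4:**
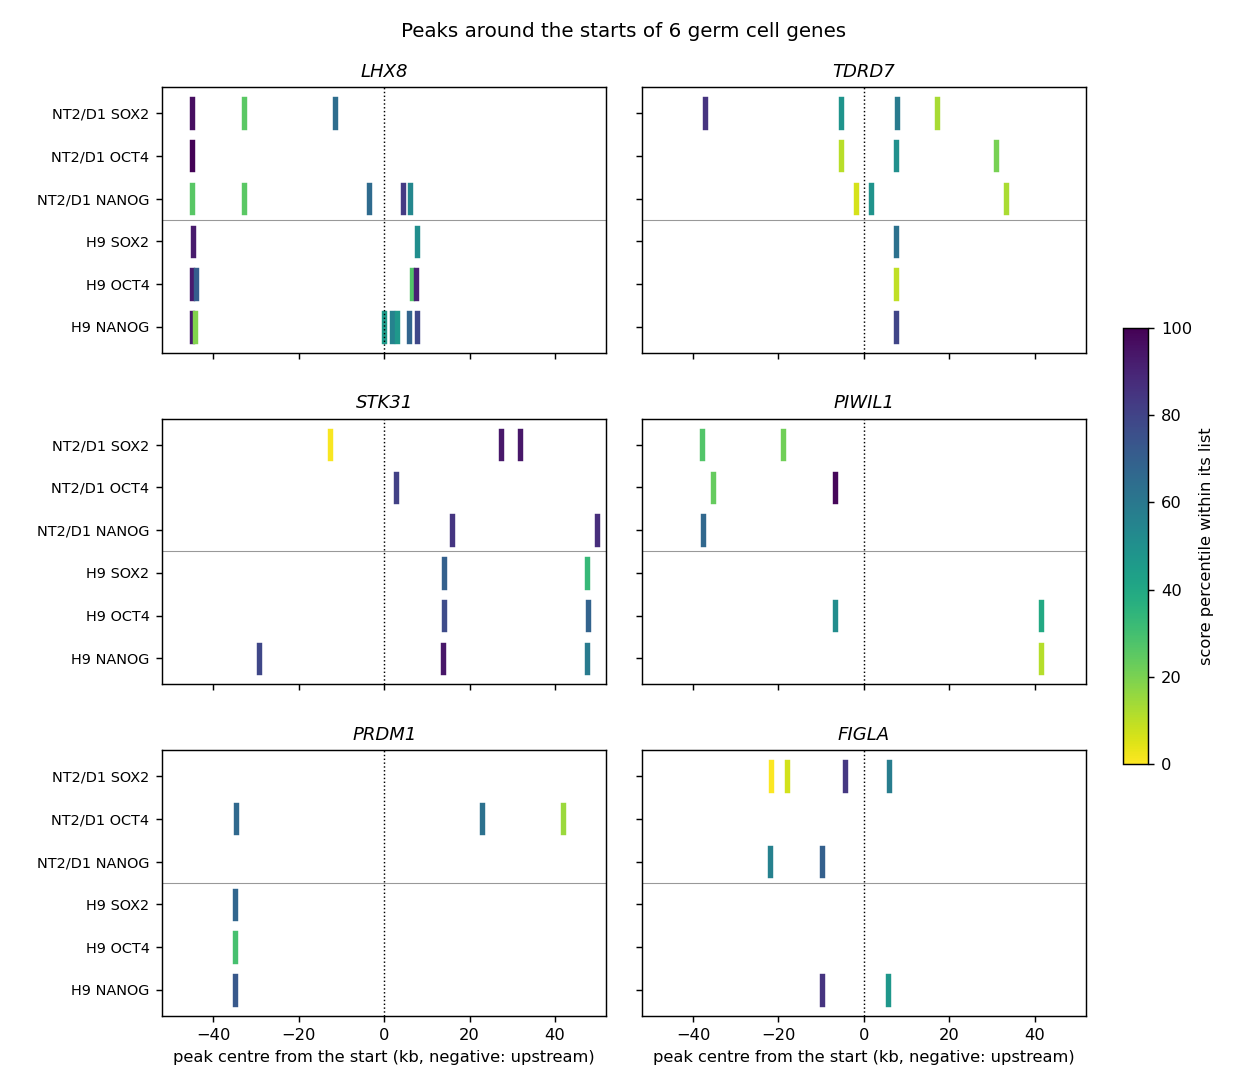
Peaks around the starts (dotted line) of 6 members, LHX8, TDRD7, STK31, PIWIL1, PRDM1 and FIGLA, with distance from the start on the x axis (kb, negative upstream), 1 row for each library and colour for score percentile. Peaks of all 6 libraries line up at LHX8 near 44 kb upstream, and of 5 at TDRD7 near 7 kb downstream, whereas the H9 sites of STK31 have no NT2/D1 peak in line.

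Of the 9 meiosis genes, 8 had a peak in NT2/D1 (28 peaks, all genes 89.3%) and 5 in H9 (5 peaks, all genes 74.1%). By list, members with peaks in NT2/D1 numbered 2 for SOX2 (all genes 55.1%), 8 for OCT4 (75.8%) and 3 for NANOG (55.3%), and in H9 0 for SOX2 (33.6%), 2 for OCT4 (55.4%) and 3 for NANOG (54.2%). STRA8, the retinoic acid gene that starts meiosis in mice, had the most in NT2/D1. Its strongest held 20 SOX2 tags (percentile 91.0, 23.0 kb upstream, 2.62 kb from the start of WDR91), 7 OCT4 tags (percentile 14.7, 45.2 kb downstream) and 22 NANOG tags (percentile 90.5, 31.6 kb downstream). A SOX2 and a NANOG peak of NT2/D1 overlapped 25.9 to 26.1 kb downstream of STRA8. The single H9 peak of STRA8 held 39 NANOG tags (percentile 54.2, 9.61 kb upstream).

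Of the recombination genes, DMC1 and SPO11 had an NT2/D1 OCT4 peak within 5 kb of the start, as 38.5% of all genes did. In NT2/D1, DMC1 had 8 tags over its start (interval 3.45 to 15.8, fold 9.27, percentile 73.4), 14 tags at -866 to -287 bp (interval 7.65 to 23.5, fold 8.08, percentile 59.5) and a further 5 tags 24.4 kb downstream. Its H9 peak was a NANOG peak of 33 tags (percentile 29.7, 36.6 kb upstream). SPO11, the enzyme that cuts DNA to start recombination, had in NT2/D1 an OCT4 peak of 13 tags (percentile 53.5, 2.29 kb upstream) and a NANOG peak of 15 tags (percentile 88.1, 17.2 kb upstream), and none in H9. PRDM9, which places recombination hotspots, had no peak within 50 kb, the nearest being an H9 NANOG peak at 117 kb.

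The 5 genes of the cohesins and the synaptonemal complex, which hold and pair meiotic chromosomes, all had an OCT4 peak within 50 kb in NT2/D1, as 75.8% of all genes did. REC8, a meiotic cohesin, had in NT2/D1 a strongest OCT4 peak of 8 tags (percentile 80.9, 3.31 kb downstream). Its H9 NANOG peak 100 to 683 bp after the start held 28 tags (interval 18.6 to 40.5) but lay at percentile 0.499, at the bottom of its list. SMC1B, another cohesin subunit, had its strongest peak in NT2/D1 OCT4, with 7 tags (percentile 79.9, 48.3 kb downstream). SYCP2 had 2 OCT4 peaks in NT2/D1, of 6 tags 255 to 420 bp after the start (interval 2.2 to 13.1, percentile 70.0) and of 13 tags 2.01 kb upstream (percentile 92.0), and a SOX2 peak of 12 tags (percentile 34.3, 49.6 kb downstream). Its H9 OCT4 peak had 23 tags (percentile 28.6, 15.1 kb downstream). SYCP1 and SYCP3 had NT2/D1 peaks only. The strongest of SYCP1 was an OCT4 peak of 13 tags (percentile 69.8, 22.5 kb upstream), and that of SYCP3 a NANOG peak of 15 tags (percentile 76.8, 41.9 kb downstream), 105 bp from the start of CHPT1.

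All 7 gametogenesis genes had a peak (all genes 97.2%), 7 in NT2/D1 (33 peaks, all genes 89.3%) and 6 in H9 (26 peaks, all genes 74.1%). LHX8 is needed for early oocytes and for cholinergic neurons of the forebrain. It had the strongest peak by percentile of any member and the sole region with peaks in all 6 lists, 43.9 to 44.9 kb upstream (hg19, chr1:75548745-75550254). There NT2/D1 had 22 SOX2 tags (interval 13.8 to 33.3, fold 11.32, percentile 96.4), 32 OCT4 tags (interval 21.9 to 45.2, fold 19.68, percentile 99.4) and 14 NANOG tags (interval 7.65 to 23.5, fold 7.04, percentile 26.0). H9 had 93 SOX2 tags (interval 75.1 to 114, fold 15.86, percentile 92.9), 50 OCT4 tags (interval 37.1 to 65.9, fold 9.75, percentile 92.6) and 75 NANOG tags (interval 59.0 to 94.0, fold 18.85, percentile 92.7). The peak stood above percentile 90 in 5 lists and in the lower part of the NT2/D1 NANOG list.

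More peaks of LHX8 lay around its start. In NT2/D1 its strongest NANOG peak was here, 4.18 kb downstream, with 11 tags (percentile 82.6). A SOX2 and a NANOG peak of NT2/D1 overlapped 32.6 to 32.7 kb upstream. In H9 the 3 factors met 6.97 to 7.26 kb downstream, with 49 SOX2 tags (percentile 50.9), 87 OCT4 tags (percentile 91.0) and 60 NANOG tags (percentile 78.4). A further site 5.13 to 6.29 kb downstream joined an NT2/D1 NANOG peak of 9 tags (percentile 53.6) with H9 OCT4 and NANOG peaks of 32 tags (percentile 27.1) and 73 tags (percentile 67.8). The H9 NANOG peak over the start, on the promoter printed above, held 39 tags (interval 27.7 to 53.3, fold 3.9, percentile 45.4).

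FIGLA, a helix-loop-helix factor that turns on egg coat genes, had in NT2/D1 a strongest SOX2 peak of 17 tags (percentile 83.7, 4.2 kb upstream) and a strongest NANOG peak of 18 tags (fold 9.12, percentile 69.6, 9.49 kb upstream). The H9 NANOG peak of 51 tags (fold 11.84, percentile 85.0) overlapped that NT2/D1 NANOG peak (hg19, chr2:71027224-71027876). An NT2/D1 SOX2 peak and an H9 NANOG peak of FIGLA overlapped 5.25 to 5.7 kb downstream. No OCT4 peak was listed for FIGLA in either line, although OCT4 peaks that were not listed for it lay 23.3 kb from its start in NT2/D1 and 23.9 kb in H9. SOHLH2, a partner factor of early oocytes and spermatogonia in mice, had in NT2/D1 strongest peaks of 8 SOX2 tags (percentile 23.1, 47.3 kb downstream) and 10 NANOG tags (percentile 35.8, 19.2 kb downstream). In H9 it had 40 SOX2 tags (percentile 59.5) and 48 NANOG tags (percentile 80.7) in overlapping peaks 3.3 to 3.32 kb downstream. SOHLH1 had in NT2/D1 a SOX2 peak of 14 tags (percentile 68.3, 9.49 kb upstream) and an OCT4 peak of 12 tags (percentile 88.3, 49.6 kb downstream), and in H9 a NANOG peak of 21 tags (percentile 9.37, 27.5 kb upstream). All of the SOHLH1 peaks lay nearer to another gene.

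ZP3, the egg coat protein, had in NT2/D1 a NANOG peak of 11 tags (interval 5.49 to 19.7, fold 9.39, percentile 90.1) 472 to 745 bp after the upstream one of its 2 starts. Its strongest NT2/D1 peaks of SOX2 (13 tags, percentile 64.6) and OCT4 (8 tags, percentile 81.8) lay 1.49 and 3.87 kb from the start of SRCRB4D. In H9 the SOX2 peak of ZP3 held 43 tags (percentile 26.0, 39.2 kb upstream, 698 bp from the start of YWHAG) and its strongest OCT4 peak 19 tags (percentile 49.1, 3.51 kb upstream). TEX14, which keeps the bridges between germ cells, was listed beside 1 peak, in NT2/D1 OCT4, with 7 tags (interval 2.81 to 14.4, percentile 70.6) at -844 to -580 bp from its start and 34 bp from the start of RAD51C. H9 peaks that were not listed for TEX14 lay 500 bp (OCT4), 12096 bp (SOX2) and 12149 bp (NANOG) from its start. An NT2/D1 NANOG peak, also not listed for it, lay 33.0 kb away. TEX15, a meiotic repair and transposon silencing gene in mice, had in NT2/D1 a strongest SOX2 peak of 8 tags (percentile 34.2, 44.2 kb upstream) and an OCT4 peak of 6 tags (percentile 25.5, 25.4 kb downstream). In H9 the strongest TEX15 peak held 25 NANOG tags (percentile 29.3, 13.4 kb upstream).

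The peaks at these starts rested on few tags in NT2/D1. The 8 OCT4 peaks of NT2/D1 within 1 kb held 6 to 14 tags each, and their deposited FDR was 2.39% for KITLG, 3.36% for NANOS2 and 5.71% to 12.67% for the others. The 3 H9 NANOG peaks within 1 kb held 26 to 39 tags, with an FDR of 1.26% at LHX8, 1.99% at TDRD1 and 9.03% at REC8.

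Other genes of the same pathways were counted by the same rule from lists that were written with earlier results of these data in view. Of 14 other primordial germ cell genes, NT2/D1 had SOX2 peaks by 11 (78.6%, against 55.1% of all genes), OCT4 peaks by 14 (100%, against 75.8%) and NANOG peaks by 9 (64.3%, against 55.4%). H9 had 12 with SOX2 peaks (85.7%, against 33.6%), 12 with OCT4 peaks (85.7%, against 55.5%) and 14 with NANOG peaks (100%, against 54.2%). That list holds genes of the pluripotent state, among them NANOG, PRDM14, LIN28A, SALL4, UTF1 and DPPA3, so its counts are not independent of what was known of these factors. Peaks of all 3 factors in 1 region were listed for 6 of the 14 in NT2/D1 (all genes 5.4%) and 9 in H9 (all genes 16.9%).

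The strongest was DPPA5, an RNA-binding protein of pluripotent and germ cells. In NT2/D1 it had 74 SOX2 tags, 44 OCT4 tags and 101 NANOG tags, at percentiles 99.7, 99.7 and 100. In H9 it had 297, 205 and 479 tags for the same factors, at percentiles 99.9, 99.5 and 100. These peaks lay 4.14 to 4.56 kb from the DPPA5 start and were also listed for KHDC3L, a maternal gene of oocytes. BMP4, the signal that induces primordial germ cells in mice, had strongest peaks 24.8 to 25.8 kb from its start at percentiles of 99.0 to 99.8 in NT2/D1 and 98.4 to 98.8 in H9. SALL4, a zinc finger factor of pluripotent and germ cells, had percentiles of 77.4 to 99.8 in NT2/D1 and 82.3 to 96.4 in H9. LIN28A, an inhibitor of let-7, had 74.5 to 99.4 in NT2/D1 and 20.7 to 73.0 in H9.

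Of 15 other piRNA genes, 7, 12 and 12 had SOX2, OCT4 and NANOG peaks in NT2/D1 (46.7%, 80% and 80%), and 7, 7 and 9 in H9 (46.7%, 46.7% and 60.0%). These shares were above the background for OCT4 and NANOG in NT2/D1 and for SOX2 and NANOG in H9, and below it for NT2/D1 SOX2 and H9 OCT4. GTSF1, a partner of PIWI proteins, had peaks in all 6 lists, with strongest percentiles in NT2/D1 of 98.2 (SOX2), 90.6 (OCT4) and 94.3 (NANOG), and in H9 of 89.1, 60.0 and 97.1. DDX43, a helicase, had in NT2/D1 an OCT4 peak of 14 tags (percentile 96.9), and in H9 129 SOX2 tags (percentile 98.2), 128 OCT4 tags (percentile 99.6) and 101 NANOG tags (percentile 93.9), at 3.67 to 3.93 kb. The same peaks were listed for the oocyte gene OOEP. PNLDC1, which trims piRNA ends, had percentiles of 93.9 for OCT4 and 83.9 for NANOG in NT2/D1, and in H9 43.3 (SOX2), 45.0 (OCT4) and 77.1 (NANOG). TDRD10 had peaks in NT2/D1, at percentiles 72.4, 84.4 and 69.1 for SOX2, OCT4 and NANOG, and none in H9.

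Of 23 other meiosis genes, 9, 17 and 6 had SOX2, OCT4 and NANOG peaks in NT2/D1 (39.1%, 73.9% and 26.1%), and 1, 7 and 5 in H9 (4.35%, 30.4% and 21.7%). All but the NT2/D1 OCT4 share were more than 10 percentage points below the background of 55.1% and 55.4% for SOX2 and NANOG in NT2/D1, and 33.6%, 55.5% and 54.2% in H9. Of the 23 genes, 21 were named beside a peak at any distance, as all genes of the background were. MSH4, a mismatch repair protein of crossovers, was the one gene of this list with all 3 factors in H9. There a SOX2 peak of 98 tags (percentile 74.4) covered its start. OCT4 (24 tags, percentile 9.99) and NANOG (51 tags, percentile 52.1) peaks of H9 lay 868 and 50 bp from that start. In NT2/D1, MSH4 had 13 SOX2 tags, 5 OCT4 tags and 11 NANOG tags at 5.16, 16.8 and 21.0 kb, at percentiles 33.5, 48.7 and 84.6. RNF212 and HFM1, which act in crossing over, had every factor in NT2/D1, at percentiles of 49.4 to 83.2 and 46.6 to 73.9.

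Of 13 other oocyte genes, 5, 10 and 5 had SOX2, OCT4 and NANOG peaks in NT2/D1 (38.5%, 76.9% and 38.5%), and 3, 5 and 7 in H9 (23.1%, 38.5% and 53.8%). Over all genes the shares were 55.1%, 75.8% and 55.4% in NT2/D1 and 33.6%, 55.5% and 54.2% in H9. The oocyte shares were below these for SOX2 and NANOG in NT2/D1 and for SOX2 and OCT4 in H9. They were next to them for NT2/D1 OCT4 and H9 NANOG. Of the 13 genes, 12 were named beside a peak at any distance, as all genes of the background were. FOXL2, an ovarian forkhead factor, had its strongest peaks 31.0 to 31.7 kb from the start in NT2/D1, at percentiles of 95.4 (SOX2), 88.2 (OCT4) and 92.3 (NANOG). In H9 its strongest peaks were 1.51 to 1.82 kb from the start, at percentiles of 60.1, 87.1 and 75.6. NOBOX, an oocyte homeodomain factor, had peaks in NT2/D1 at percentiles of 32.7, 66.2 and 7.28, and none of all 3 factors in H9.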

How the data were processed

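The deposited peak lists of the 6 factor libraries were used, and the 2 IgG samples were not analysed on their own. The headers name 2 IgG libraries for NT2/D1, and which one is the labelled sample was not worked out. Per the file headers, the authors ran MACS separately on each ChIP library with an IgG control, at a p-value cutoff of 0.001 and a tag size of 50. Positions are on hg19, per the submitters' processing notes. MACS version and aligner are not given in the sources used here. Each deposited peak has a raw count of its ChIP tags and a fold, the authors' ratio of these to the IgG background. It also has an FDR, which the authors give in percent. Over the peaks of a list, FDR rose with score for NT2/D1 SOX2 and NANOG (Spearman rho of 1.0 for both), where an FDR limit removes strong peaks, and fell with score in the other lists (rho of -0.991 for NT2/D1 OCT4 and -0.89 to -0.98 for H9). The deposited score, whose column name was overwritten, was read as the log10 of the p-value times 10 with its sign turned, since no score was under 30.

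The submitters had added the nearest gene on either side of each peak and its distance. These distances placed 36 members' starts, and 99.4% of 19161 transcript accessions had all their distances meeting at 1 start. Overlapping peaks of a gene, sharing 1 bp or more, were joined into regions. Promoters came from RefSeq (GRCh38.p14) and were used for letters only. No sequence of peaks was read, since no hg19 genome was used here. Counts were set beside the same count over all listed genes. There was no test and no replicate. The procedure was tested on simulated data. The members, the lists and the counts were chosen with earlier results of these data known. Values in every list are given for members with a peak within 50 kb in at least 3 of 6 lists or within 5 kb in any, and other members with a peak are named with their strongest. Of other germ cell genes, those with all 3 factors in a line are named, up to 4 of a list by percentile. Python 3.11.15, pandas 2.3.3, scipy 1.17.1 and matplotlib 3.10.9 were used.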

Additional observations from a re-analysis of the deposited data

How the results depend on the processing

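Of the counts recomputed under each alternative, 88 stayed within 1.5 times the value reported and 46 did not. Some of the 88 could not change. A count of 0 within 1 kb stays 0 when peaks are removed, and exchanging the NT2/D1 libraries leaves the SOX2 and H9 counts as they were. The tally is thus no measure of how stable the counts are. Most of the 46 shrank because fewer peaks entered. Within 5 kb, members with SOX2, OCT4 and NANOG peaks numbered 1, 10 and 5 in NT2/D1 and 2, 2 and 7 in H9, beside the shares of all genes given above. All 3 factors, in 1 region or several, were found for 0 members in either line. Over all genes 4.11% in NT2/D1 and 5.11% in H9 had all 3 within 5 kb. Within 20 kb, NT2/D1 SOX2 and NANOG gave 11 each (29.7%, against 38.7% and 39.5% of all genes), and H9 SOX2 gave 7 (18.9%, against 20.7%). All 3 factors were listed for 3 members in NT2/D1 (8.11%, against 17.2%) and 4 in H9 (10.8%, against 12.8%). With only the nearer gene counted, H9 SOX2 gave 7 (18.9%, against 27.6%), and all 3 factors gave 5 in NT2/D1 (13.5%, against 25.1%). In the upper 50% of each list by score, NT2/D1 SOX2 gave 11 (29.7%, against 36.6%). H9 SOX2, OCT4 and NANOG gave 6, 4 and 10 (16.2%, 10.8% and 27.0%, against 18.8%, 32.3% and 31.3%). All 3 factors gave 5 in NT2/D1 (13.5%, against 15.7%) and 3 in H9 (8.11%, against 12.8%). All 3 in 1 region gave 0 in NT2/D1 and 2 in H9, H9 NANOG within 1 kb gave 0, and OCT4 overlap of the lines gave 2. In lists of equal length, NT2/D1 SOX2 gave 11, H9 OCT4 and NANOG gave 7 and 11, all 3 factors gave 5 in NT2/D1 and 3 in H9, all 3 in 1 region gave 0 in NT2/D1 and 2 in H9, and H9 NANOG within 1 kb gave 1. At an FDR of at most 5%, NT2/D1 OCT4 gave 10 (27.0%, against 28.8%), and H9 SOX2 and OCT4 gave 6 and 3 (16.2% and 8.11%, against 17.6% and 26.0%). All 3 factors then gave 3 in each line (8.11%, against 12.8% in NT2/D1 and 12.1% in H9). With a reciprocal overlap of 50%, SOX2 overlap of the lines gave 1, at TDRD7. With the NT2/D1 libraries exchanged as their source names read, members within 1 kb were 1 for OCT4 and 7 for NANOG, and OCT4 overlap of the lines gave 1. One alternative, chosen after seeing the data, counted any peak within 50 kb of a start, named beside the gene or not. It gave all 3 factors at 16 members in NT2/D1 (43.2%, against 48.1% of all genes). H9 peaks alone stood at 0 members, where 5.54% of all genes had them, against 2 members as reported. NT2/D1 peaks alone stood at 7 members (18.9%, against 14.1% of all genes).

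The shares of members, over all 37 with TDRD6 never listed, stayed at or below those of all genes in all but 8 of 72 such pairs. The exceptions were NT2/D1 NANOG (48.6% against 45.3%) and H9 NANOG (51.4% against 45.0%) with only the nearer gene counted, H9 NANOG within 20 kb (40.5% against 38.0%), NT2/D1 OCT4 (56.8% against 53.6%) and NANOG (37.8% against 37.4%) in the upper 50%, NT2/D1 NANOG at equal length (40.5% against 40.1%), NT2/D1 SOX2 with any peak counted (67.6% against 65.0%) and H9 NANOG without the widest 1% of peaks (54.1% against 54.0%). The 72 pairs include those with the NT2/D1 libraries exchanged. That exchange swaps the NT2/D1 OCT4 and NANOG shares and leaves the rest as they were, so these pairs could not differ from the shares reported. The pairs for single lists at the closest limit in this tally repeat shares given above as results. All settings draw on the same peaks, so the tally is no measure of how firmly the shares lie below those of all genes. The alternatives within 1 kb and for regions were also chosen after seeing the data.

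No paired analysis was possible because each factor and line had 1 library. With a tag count of 5 to 8 in the smallest NT2/D1 peaks and 13 to 16 in the smallest H9 peaks, a missing peak says that none was called at this depth, not that the factor was absent.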

Other observations

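The 50 kb limit left peaks on both sides of it. Just inside lay NT2/D1 peaks of SMC1B (OCT4, 48303 bp), NANOS3 (SOX2, 49082 bp), SYCP2 (SOX2, 49582 bp), SOHLH1 (OCT4, 49629 bp) and STK31 (NANOG, 49684 bp). Just outside lay NT2/D1 peaks of SYCP3 (NANOG, 50392 bp), NANOS1 (OCT4, 51232 bp), NANOS3 (OCT4, 51351 bp) and MAEL (SOX2, 51734 bp), and an H9 OCT4 peak of NANOS1 (51220 bp).

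TDRD9, a Tudor-domain helicase of the piRNA pathway, had its 2 listed peaks in NT2/D1, for NANOG at 83.6 kb (9 tags, percentile 59.6) and for OCT4 at 149 kb (12 tags, percentile 89.4). The nearest peaks of PRDM9 lay 211 to 273 kb away in NT2/D1 and 117 to 123 kb away in H9.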
